A study of Mus musculus with 20 samples.

Results

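The comparison described here set wild type adult small intestine against wild type fetal gut with a small intestine profile, across 17452 genes. It used 4 RNA pools on 10 of the 20 two-colour Agilent arrays of a series on Spdef, and those 4 were among 9 wild type pools in all. The adult pools were small intestine pairs 1 and 2, taken at postnatal day 30. The fetal pools, taken at E18.5, were those labelled small intestine 1 and 2, counted together as 1 pool, and the one labelled colon 1. Fetal pools were chosen by the absence of Hoxd10 and Hoxd13 signal, genes of the hindgut end of the Hox code, and values of these genes are therefore given without a test.

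All 4 pools carried wild type Spdef, came from whole tissue of 2 to 3 littermates, and were hybridized against Spdef-/- pools of the same tissue and stage. Each pair was run in both dye orders, and the values below are log2 intensities of the wild type channel averaged over the dye orders. No strain is given in the labels. Nothing in the labels says more of how the pools were made independent than that littermates were pooled. The p-values measure the spread between pools within the 4 profile groups of all 9 wild type pools, colon pools included. They do not measure the spread of the 4 pools compared alone. In whole tissue, fewer cells of a type and less RNA per cell cannot be told apart. No slide held both an adult and a fetal pool of this comparison, so stage and slide cannot be told apart either. The number of pools limits the precision.

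Before birth the mouse small intestine is lined by villi without mature crypts, and its enterocytes take up luminal protein whole by endocytosis and break it down in lysosomes. Paneth cells, the granular cells at the base of the crypts whose secretions act against bacteria, appear after birth. With weaning, enterocytes change from milk sugar to sucrose and starch digestion, and the gut is colonized by bacteria and populated by lymphocytes and IgA plasma cells. Many imprinted growth genes and oncofetal genes are active in fetal tissues and decline after birth.

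The library labelled fetal colon 1 went against its label. Hoxd10 was at 6.99 and 7.0 in the adult small intestine pools, at 7.01 in the merged fetal small intestine pool and at 7.05 in the pool labelled fetal colon 1. It was well above background on none of these arrays. Hoxd10 stood at 8.96 in the pool labelled fetal small intestine 3 and at 9.37 in fetal colon pool 2. Hoxd13 divided the pools the same way, with 6.97 and 6.94 in the adult pools, against 7.08 and 6.98 in the fetal pools, and with 10.21 and 9.98 in the other fetal pools. Lct, the lactase of the small intestinal brush border, was at 15.93 and 16.37 in the adult pools, against 16.02 and 16.37 in the fetal pools, and at 8.76 and 9.08 in the other fetal pools. The colon gene Car1 was low in all 4, at 7.73 and 7.74 in the adult pools, against 7.57 and 7.52 in the fetal pools. Root mean square differences were taken over the brightest kept probe of each gene. They were 0.249 to 0.253 between the pool labelled fetal colon 1 and each fetal small intestine pair of the merged pool. Between those pairs and the pool labelled fetal small intestine 3 they were 0.785 to 0.786. The merged pairs differed from each other by 0.0779, less than their own dye orders (0.135 and 0.146), and were counted as 1 pool.

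**Figure D1:**
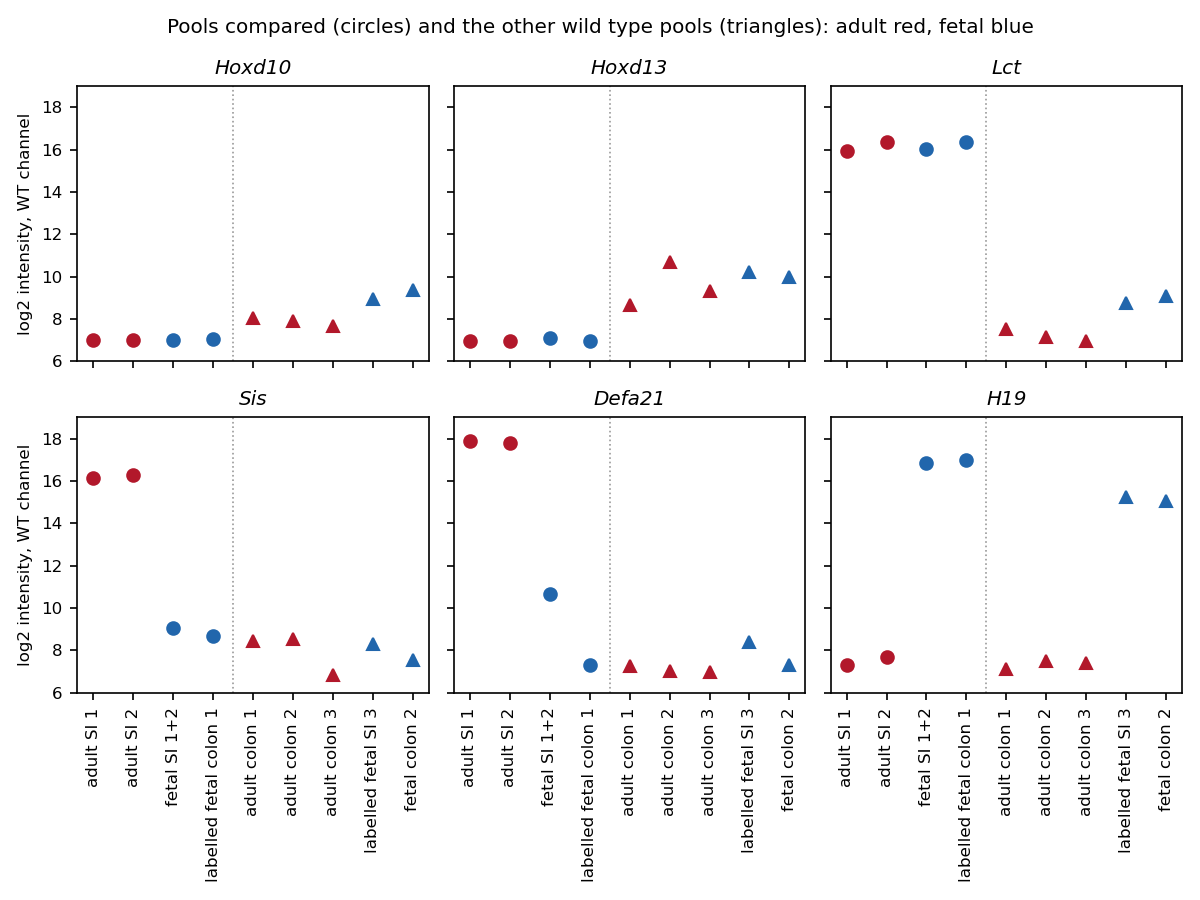
Level of 6 genes (log2 intensity of the wild type channel, y axis) in the 9 wild type pools, 1 point a pool (SI, small intestine). Circles are the 4 pools compared and triangles the others, with adult pools in red and fetal pools in blue. Hoxd10 and Hoxd13 lie near 7 in all circles, Lct lies between 15.93 and 16.37 in them, and Sis, Defa21 and H19 part the adult from the fetal circles.

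Of 41174 probes, 55.1% to 66.6% were well above background in the wild type channel of the arrays compared. Spdef, the gene deleted in the partner channel, was at 9.97 and 10.08 in the adult pools, against 9.41 and 9.35 in the fetal pools, and averaged 7.76 and 7.71 in the adult and fetal knockout pools. A fit over all 9 wild type pools (limma, Benjamini-Hochberg threshold 0.05) gave 1708 genes higher in adult small intestine, 9.79% of those tested, and 2045 lower, 11.7%. With a difference of at least 2 on the log2 scale, a 4-fold change, required besides the test, 387 genes were higher in adult pools (2.22%) and 266 lower (1.52%). The median difference over all genes was -0.05 and the median standard error 0.22. Without the pool labelled fetal colon 1 the counts were 825 higher and 838 lower, of which 349 and 245 were at least 4-fold. With the fetal groups as labelled they were 815 and 626, and 334 and 144 were at least 4-fold. One array of adult colon pool 1, which enters only the estimate of the spread, was dim (39.8% of probes above background), and its dye orders differed by 1.60 in root mean square, against at most 0.222 for any other pool. Without that pool 3297 genes were higher and 4039 lower, and 395 and 272 were at least 4-fold.

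In the knockout pools, which shared the arrays and the sorting by profile but were of other animals, all 653 genes past 4-fold had the same sign, and 643 passed the test there. Of the 653 genes, 70 were not well above background on any array of one stage, so that the fold given for such a gene below is a lower bound.

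The 5 genes that mark the comparison are given as a description, since they were picked with their values known. Sis, the sucrase-isomaltase of the brush border (probe on chromosome 3, positions 72976817 to 72976876, build mm8), was at 16.14 and 16.29 in the adult pools, against 9.06 and 8.66 in the fetal pools. Defa21, an alpha-defensin of Paneth cells (probe on chromosome 8, positions 22521076 to 22521135, mm8), was at 17.88 and 17.81 in the adult pools, against 10.68 and 7.31 in the fetal pools. Both genes were high in both adult pools. Their adult and fetal pools did not overlap, which held for 76.9% of all genes tested. The fetal pools differed for Defa21, with the merged pool the higher. H19, an imprinted noncoding RNA (probe on chromosome 7, positions 142385254 to 142385313, mm8), stood at 7.32 and 7.67 in the adult pools, against 16.85 and 16.96 in the fetal pools. Dlk1, an imprinted transmembrane ligand (probe on chromosome 12, positions 109908264 to 109908323, mm8), was at 7.26 and 7.25 in the adult pools, against 12.84 and 12.60 in the fetal pools. Folr1, the folate receptor alpha (probe on chromosome 7, positions 101732236 to 101732295, mm8), was at 8.19 and 8.08 in the adult pools, against 15.14 and 15.35 in the fetal pools. These 3 were high in both fetal pools and close to the floor of the scale in both adult pools. In the knockout pools the adult minus fetal differences were 6.72 for Sis, 8.35 for Defa21, -9.56 for H19, -5.34 for Dlk1 and -7.07 for Folr1.

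Promoters of 4 genes are shown because their products mark the ends of the comparison. Sis and Treh were high in adult pools, Lct was high at both stages, and Afp was high in fetal pools. The sequences run from 250 bases before the annotated start to 50 after it (RefSeq, GRCm38.p6), 5′ to 3′ on the gene's strand. Capitals mark the letters TTTATNG (the Cdx core) and GTTAAT (part of the HNF1 site) in Sis, CAAAGTCCA (HNF4) in Treh, AGATAA (bound by Gata factors) in Lct and GTTAAT in Afp, on either strand, with no overlap between them.
Sis (chr3:72967814-72968113, minus strand): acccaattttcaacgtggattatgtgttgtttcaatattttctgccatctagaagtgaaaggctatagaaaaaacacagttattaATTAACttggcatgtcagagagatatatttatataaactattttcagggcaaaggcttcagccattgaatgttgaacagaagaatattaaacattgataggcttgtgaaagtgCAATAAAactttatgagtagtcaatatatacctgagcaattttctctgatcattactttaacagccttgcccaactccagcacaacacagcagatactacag
Treh (chr9:44672983-44673282, plus strand): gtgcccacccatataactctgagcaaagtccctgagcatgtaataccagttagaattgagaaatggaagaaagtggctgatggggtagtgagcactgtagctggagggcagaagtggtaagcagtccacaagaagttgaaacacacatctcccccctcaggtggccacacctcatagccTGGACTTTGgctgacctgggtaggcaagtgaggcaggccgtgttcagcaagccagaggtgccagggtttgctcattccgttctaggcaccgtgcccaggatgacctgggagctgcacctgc
Lct (chr1:128328269-128328568, minus strand): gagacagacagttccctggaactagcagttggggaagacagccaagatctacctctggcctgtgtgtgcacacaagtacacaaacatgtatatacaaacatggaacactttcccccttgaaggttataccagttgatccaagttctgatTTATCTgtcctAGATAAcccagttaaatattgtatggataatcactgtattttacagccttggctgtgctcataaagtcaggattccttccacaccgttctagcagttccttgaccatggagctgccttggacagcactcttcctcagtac
Afp (chr5:90490464-90490763, plus strand): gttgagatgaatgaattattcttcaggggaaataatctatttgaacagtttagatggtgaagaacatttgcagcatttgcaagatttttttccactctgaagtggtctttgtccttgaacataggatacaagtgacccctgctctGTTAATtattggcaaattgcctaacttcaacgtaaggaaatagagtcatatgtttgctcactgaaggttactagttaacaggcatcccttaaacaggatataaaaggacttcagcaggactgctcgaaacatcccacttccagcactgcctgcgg
In Sis the Cdx letters begin 52 bases and the HNF1 letters 165 bases before the start. The HNF4 letters of Treh begin 71 bases before its start, the GATA letters of Lct at 101 and 90 bases, and the HNF1 letters of Afp at 105 bases. Among all 32851 promoters of the table, 10.9% hold TTTATNG, 7.1% GTTAAT, 11.2% AGATAA and 0.475% CAAAGTCCA. A promoter in the table matched 237 of the genes at least 4-fold higher in adult pools, of which 41 (17.3%) held TTTATNG and 7 (2.95%) CAAAGTCCA, against 7.71% and 0.484% of the 11767 tested genes matched. Of 201 matched genes at least 4-fold lower, 15 (7.46%) held TTTATNG and 17 (8.46%) held GTTAAT, against 4.7% of the tested genes for the second. GTTAAT, marked in Sis, was in 11 (4.64%) of the genes higher in adult pools. AGATAA was in 21 (8.86%) of the genes higher and 19 (9.45%) of those lower, against 7.13% of the tested genes. These letter matches are a description and were not tested.

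The 12 named genes with the largest rise in adult small intestine included genes of host defence, digestion and plasma cells. After Defa21, the alpha-defensin Defa31 was at 16.88 and 16.38 in the adult pools, against 8.41 and 7.73 in the fetal pools (difference 8.56 ± 0.25, adjusted p = 1.38e-06 by limma). The regenerating lectins Reg3a and Reg3g, which act against bacteria, differed by 7.36 ± 1.26, adjusted p = 0.00564, and by 7.03 ± 0.73, adjusted p = 0.000554. Jchain, the joining chain of polymeric immunoglobulin, was at 14.55 and 14.41 in the adult pools, against 8.0 and 7.15 in the fetal pools (6.90 ± 0.25, adjusted p = 3.04e-06). Iglv1, a lambda light chain variable segment, differed by 7.38 ± 0.60. Saa2, a serum amyloid A, was at 14.36 and 14.29 in the adult pools, against 7.57 and 7.42 in the fetal pools, a 114-fold rise (6.83 ± 0.14, adjusted p = 3.65e-07). Ada, adenosine deaminase, was at 15.40 and 15.65 in the adult pools, against 9.31 and 9.27 in the fetal pools, a 75.3-fold rise (6.23 ± 0.27, adjusted p = 6.23e-06). Cyp4f14, a fatty acid hydroxylase, rose 72.1-fold (6.17 ± 0.24, adjusted p = 4.22e-06). Defa39 differed by 6.58 ± 0.47. Prm1, whose product packs DNA in sperm, was at 15.46 and 15.44 in the adult pools, against 7.74 and 7.71 in the fetal pools, and 2 kept probes carried its name. The defensin, Reg3, Saa and immunoglobulin probes can read close paralogues, so their values are uncertain for single genes.

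The 12 named genes with the largest fall were led by H19, Mamdc4 and Folr1, and the cells that carried these signals were not tested. Mamdc4, also called endotubin, a membrane protein of the apical endocytic tubules, was at 7.29 and 7.27 in the adult pools, against 14.37 and 14.64 in the fetal pools, a 150-fold fall (-7.22 ± 0.15, adjusted p = 3.65e-07). Meltf, melanotransferrin, was at 9.99 and 9.57 in the adult pools, against 16.36 and 16.80 in the fetal pools (-6.80 ± 0.21, adjusted p = 1.45e-06). Igf2, the fetal insulin-like growth factor, was at 8.84 and 8.90 in the adult pools, against 15.20 and 15.54 in the fetal pools, a 90.5-fold fall. Renbp, a renin-binding protein that acts in sialic acid metabolism, was at 8.72 and 8.55 in the adult pools, against 15.16 and 15.10 in the fetal pools (-6.50 ± 0.28, adjusted p = 6.21e-06). The argininosuccinate synthase Ass1 stood at 8.45 and 8.32 in the adult pools, against 14.55 and 14.66 in the fetal pools, a 74.5-fold fall (-6.22 ± 0.20, adjusted p = 1.69e-06). Aqp8, a water channel, was at 7.81 and 8.08 in the adult pools, against 14.04 and 13.77 in the fetal pools (-5.96 ± 0.19, adjusted p = 1.45e-06). Bex4 (-5.92 ± 0.43, adjusted p = 8.57e-05), the secreted glutathione peroxidase Gpx3 (-5.87 ± 0.23, adjusted p = 4.47e-06), the imprinted cell cycle inhibitor Cdkn1c (-5.63 ± 0.38, adjusted p = 6.25e-05) and Smcp, known as a sperm mitochondrial protein (-5.82 ± 0.17, adjusted p = 1.38e-06), completed the group. In each of these 12 genes both fetal pools lay above both adult pools by more than the distance between pools of a stage. The genes were picked for the largest fall and for no overlap between stages, so their separation is a description. No overlap held for 76.9% of all genes tested.

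**Figure D2:**
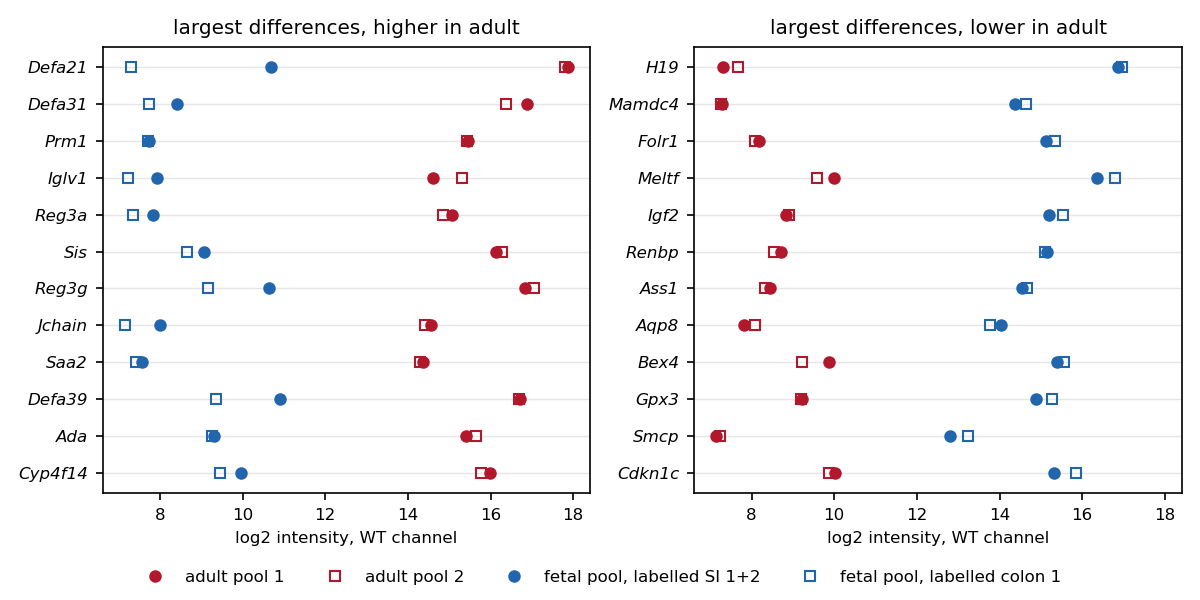
Level of the 12 genes with the largest rise (left) and the 12 with the largest fall (right) in adult pools, as log2 intensity of the wild type channel (x axis) in each of the 4 pools. Adult pools are red and fetal pools blue. The fetal pools lie at most 10.90 on the left, and the adult pools at most 10.02 on the right.

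Epcam, Vil1 and the keratins Krt8 and Krt19, genes of epithelial cells, were higher in adult pools. Epcam, an adhesion molecule of epithelial cells, was at 15.39 and 15.98 in the adult pools, against 13.61 and 14.06 in the fetal pools (1.85 ± 0.37, adjusted p = 0.0107). The brush border actin bundler Vil1 differed by 1.13 ± 0.24, adjusted p = 0.0127, and the keratins Krt8 and Krt19 by 1.16 ± 0.19, adjusted p = 0.00472, and by 1.5 ± 0.17, adjusted p = 0.000947. Epcam and Vil1 were chosen after their values were seen. The part of these differences in the epithelial lists below was not tested.

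Brush border hydrolases rose or missed the threshold, with lactase among those that missed it. Of 24 tested, 11 were higher and 0 lower in adult pools, with a median of 1.16. Treh, the trehalase, was at 13.39 and 13.90 in the adult pools, against 7.46 and 7.53 in the fetal pools, a 70.8-fold rise (6.15 ± 0.18, adjusted p = 1.38e-06). Mgam, the maltase-glucoamylase that works beside sucrase-isomaltase on starch, was at 16.50 and 16.94 in the adult pools, against 13.72 and 13.89 in the fetal pools (2.92 ± 0.19, adjusted p = 5.19e-05). Tmprss15, the enteropeptidase that activates trypsinogen, rose 8.3-fold (3.05 ± 0.21, adjusted p = 6.25e-05) and the dipeptidase Dpep1 6.97-fold (2.80 ± 0.20, adjusted p = 8.41e-05). Unlike these, lactase (Lct) differed by -0.05 ± 0.25 (adjusted p = 0.923) with its 4 pools within 0.44 of one another. The alkaline phosphatase Alpi (-0.55 ± 0.40) and the meprin subunit Mep1a (-0.17 ± 0.16) also missed the threshold, while the partner subunit Mep1b rose (2.02 ± 0.22, adjusted p = 0.000662). Of the list, 10 were higher without the pool labelled fetal colon 1 and 13 without adult colon pool 1.

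Most transporters of sugars, peptides and amino acids rose. Of 21 tested, 13 were higher and 1 lower in adult pools (median 1.35). Slc5a4a, a sodium-coupled sugar transporter relative, was at 11.80 and 12.61 in the adult pools, against 8.11 and 8.12 in the fetal pools (4.09 ± 0.24, adjusted p = 3.36e-05), and its neighbour Slc5a4b differed by 3.46 ± 0.21. Slc2a5, the fructose transporter, was at 14.06 and 14.81 in the adult pools, against 11.06 and 10.06 in the fetal pools (3.87 ± 0.44, adjusted p = 0.000846). The glucose transporters Slc5a1 (2.69 ± 0.26, adjusted p = 0.0004) and Slc2a2 (1.45 ± 0.20, adjusted p = 0.00221) and the peptide transporter Slc15a1 (2.08 ± 0.35, adjusted p = 0.00527) rose as well. The lactate transporter Slc5a12 was not above background on any fetal array and was at least 8.49-fold higher in adult pools (adjusted p = 3.79e-05). The neutral amino acid transporter Slc43a2 rose by 2.69 ± 0.23, adjusted p = 0.000196. Cltrn, collectrin, which carries amino acid transporters to the membrane, was the 1 member lower (-1.47 ± 0.13, adjusted p = 0.000261). Leaving out the pool labelled fetal colon 1, 10 members were higher.

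Fat handling did not move one way. Of 27 genes tested, 4 were higher and 6 lower in adult pools, with a median of -0.23. The cholesterol importer Npc1l1 was at 14.57 and 14.57 in the adult pools, against 12.45 and 12.95 in the fetal pools (1.88 ± 0.19, adjusted p = 0.000573), and the sterol exporters Abcg5 (1.95 ± 0.32, adjusted p = 0.00477) and Abcg8 (1.02 ± 0.14, adjusted p = 0.00241) rose with it. Lower in adult pools were Cd36, a fatty acid receptor, at 10.06 and 10.33 in the adult pools, against 12.59 and 12.45 in the fetal pools (-2.32 ± 0.22, adjusted p = 0.000367), the lipid droplet coat protein Plin2 (-2.04 ± 0.21, adjusted p = 0.000607), the lipoprotein receptor Scarb1 (-1.60 ± 0.19, adjusted p = 0.00107) and the chylomicron apolipoproteins Apoa4 (-2.11 ± 0.26, adjusted p = 0.0013) and Apoc3 (-1.97 ± 0.26, adjusted p = 0.0016). Core genes of chylomicron assembly, Apob (-0.28 ± 0.25) and Mttp (-0.39 ± 0.25), and the fatty acid binding proteins Fabp1 (0.62 ± 0.38) and Fabp2 (0.37 ± 0.24) missed the threshold. With the fetal groups as labelled 0 members passed in either direction, and 7 were higher without adult colon pool 1.

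Bile acid genes turned in opposite directions. The ileal importer Slc10a2 was at 12.14 and 11.49 in the adult pools, against 7.16 and 7.29 in the fetal pools (4.59 ± 0.58, adjusted p = 0.00143), the ileal bile acid binding protein Fabp6 at 10.43 and 10.29 in the adult pools, against 7.59 and 7.95 in the fetal pools (2.59 ± 0.18, adjusted p = 8.19e-05), and the exporter Abcc3 rose 8.26-fold (3.05 ± 0.17, adjusted p = 2.76e-05). Abcb11, the bile salt export pump of liver, was at 7.44 and 7.63 in the adult pools, against 12.89 and 13.14 in the fetal pools, a 44.7-fold fall (-5.48 ± 0.18, adjusted p = 1.84e-06). Both fetal pools carried the Abcb11 signal. The bile acid receptor Nr1h4 was lower (-1.14 ± 0.22, adjusted p = 0.01), and its target Fgf15, the ileal hormone that restrains bile acid synthesis, differed by 0.12 ± 0.18 (adjusted p = 0.697). In all, 4 of 10 genes tested were higher and 3 lower in adult pools (median 0.60). Without the pool labelled fetal colon 1 the counts were 3 and 2.

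In the list of endocytic and lysosomal genes known from the fetal enterocyte, members fell and none rose in adult small intestine. The cells that carried their signal were not tested. Of 24 genes tested, 0 were higher and 14 lower in adult pools, with a median of -1.48. Besides Mamdc4 and Folr1, the neonatal Fc receptor Fcgrt, which carries maternal IgG across the epithelium, was at 10.48 and 11.37 in the adult pools, against 15.30 and 15.77 in the fetal pools (-4.61 ± 0.30, adjusted p = 5.18e-05). The lysosomal galactosidase Glb1 was at 10.57 and 10.82 in the adult pools, against 14.40 and 14.47 in the fetal pools (-3.74 ± 0.17, adjusted p = 8.79e-06), and the cathepsin Ctsl (-3.20 ± 0.23, adjusted p = 8.11e-05) and legumain (Lgmn, -2.26 ± 0.55, adjusted p = 0.0241) fell too. Dab2, the clathrin adaptor of apical endocytosis, was at 8.15 and 7.89 in the adult pools, against 10.85 and 11.15 in the fetal pools (-2.98 ± 0.16, adjusted p = 1.95e-05), and the scavenger receptor Lrp2, megalin, was at least 8.42-fold lower. The other receptor partners cubilin (Cubn, 0.26 ± 0.52) and amnionless (Amn, -0.79 ± 0.34) missed the threshold. With the merged fetal pool alone as reference, 10 were lower, and with the fetal groups as labelled 4.

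Arginine synthesis and breakdown went opposite ways. Asl, which completes the step begun by Ass1, was at 9.87 and 9.85 in the adult pools, against 12.49 and 12.71 in the fetal pools (-2.74 ± 0.24, adjusted p = 0.000224). Arg2, the arginase that splits arginine, was at 12.73 and 13.25 in the adult pools, against 7.28 and 7.05 in the fetal pools, a 56.7-fold rise (5.83 ± 0.26, adjusted p = 7.65e-06). Both enzymes left the adult and fetal pools without overlap, as did 76.9% of all genes tested. The gluconeogenic Fbp1 was lower (-2.24 ± 0.39, adjusted p = 0.0059). Of 14 genes of the urea cycle and gluconeogenesis tested, 3 were higher and 5 lower in adult pools (median -0.46), and Cps1, which starts the urea cycle, differed by -0.56 ± 0.34 (adjusted p = 0.297). Leaving out any 1 of the 4 pools left 1 higher, and without the merged fetal pool 3 were lower.

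Paneth cell genes had the largest list median among those higher in adult pools. Of 22 tested, 16 were higher and 1 lower in adult pools, with a median of 3.13. Lyz1, the Paneth lysozyme, was at 16.56 and 16.61 in the adult pools, against 10.73 and 10.49 in the fetal pools, a 63-fold rise (5.98 ± 0.21, adjusted p = 2.15e-06). Mmp7, the protease that activates alpha-defensins, was at 13.76 and 13.13 in the adult pools, against 9.51 and 9.12 in the fetal pools (4.14 ± 0.41, adjusted p = 0.000453). Ang4, an antimicrobial angiogenin, differed by 4.19 ± 0.58, adjusted p = 0.00228, and the lectin Itln1 by 4.07 ± 0.74, adjusted p = 0.00757. Pla2g2a, a secreted antibacterial phospholipase, was at least 11.5-fold higher (adjusted p = 8.78e-05). Defa22 (5.68 ± 0.23, adjusted p = 5.34e-06), Defa20 (4.45 ± 0.47, adjusted p = 0.000597) and the potassium channel Kcnn4 (2.21 ± 0.15, adjusted p = 6.25e-05) rose, and the Wnt receptor Fzd5 rose by 1.82 ± 0.22, adjusted p = 0.00112. Sox9 (0.61 ± 0.48) and Ephb3 (0.65 ± 0.55), also expressed in crypt progenitors, missed the threshold, and Copz2 was the 1 member lower (-0.81 ± 0.20, adjusted p = 0.0279). When the pool labelled fetal colon 1 was left out, 13 were higher, and 20 without adult colon pool 1.

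Among inducible epithelial defence genes more members rose than fell. Of 30 tested, 13 were higher and 3 lower in adult pools (median 1.11). Saa1 was at 13.78 and 13.85 in the adult pools, against 8.31 and 8.22 in the fetal pools, a 46.8-fold rise (5.55 ± 0.16, adjusted p = 1.38e-06), and Saa3 at 11.29 and 11.23 in the adult pools, against 7.45 and 7.39 in the fetal pools (3.84 ± 0.16, adjusted p = 5.99e-06). Pigr, the receptor that carries IgA into the lumen, was at 14.41 and 14.89 in the adult pools, against 10.15 and 10.46 in the fetal pools, a 20.3-fold rise (4.34 ± 0.19, adjusted p = 7.21e-06). Duoxa2, the maturation factor of the oxidase Duox2, rose by 4.88 ± 0.50, adjusted p = 0.000545, while Duox2 itself differed by 1.38 ± 0.51 (adjusted p = 0.0989). S100a9, a calprotectin subunit of neutrophils, was lower (-2.73 ± 0.40, adjusted p = 0.00291), with its partner S100a8 at least 2.16-fold lower. Tlr5, the flagellin receptor, was the third member lower (-1.14 ± 0.15, adjusted p = 0.00202).

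Goblet, enteroendocrine and tuft cell genes were read as separate lists. Of 32 goblet cell genes, 7 were higher and 0 lower in adult pools (median 0.53). Muc2, the gel-forming mucin, was at 13.67 and 13.87 in the adult pools, against 10.44 and 10.49 in the fetal pools (3.30 ± 0.20, adjusted p = 3.82e-05), and Zg16, a lectin of the mucus, at 17.40 and 17.54 in the adult pools, against 14.62 and 14.89 in the fetal pools (2.72 ± 0.15, adjusted p = 2.58e-05). The membrane mucin Muc4 (1.59 ± 0.16, adjusted p = 0.000489) and the transporter Slc12a8 (1.55 ± 0.20, adjusted p = 0.00158) rose. Agr2, the mucin isomerase (0.47 ± 0.17), Tff3, the goblet trefoil factor (0.47 ± 0.21), and Atoh1, the regulator of secretory fate (0.50 ± 0.22), missed the threshold. Of the goblet genes, 18 were higher without adult colon pool 1, and 4 were higher without any 1 of the 4 pools compared. In 29 enteroendocrine genes, 1 was higher and 3 lower, beside 9.79% and 11.7% of all genes. Of the enteroendocrine genes, 1 was lower without adult pool 2 or the merged fetal pool and 7 without adult colon pool 1. The convertase Pcsk1 rose (0.72 ± 0.17, adjusted p = 0.0209). Ghrl, which encodes ghrelin, was at 10.11 and 10.50 in the adult pools, against 12.73 and 12.43 in the fetal pools (-2.27 ± 0.28, adjusted p = 0.00126), and Cck, cholecystokinin, at 11.94 and 11.93 in the adult pools, against 13.54 and 13.27 in the fetal pools (-1.47 ± 0.36, adjusted p = 0.0252). Cplx2 was lower too (-1.02 ± 0.23, adjusted p = 0.0185), whereas Gip (-0.23 ± 0.16), Sct (-0.38 ± 0.80) and Chga (0.42 ± 0.25) missed the threshold. In tuft cells, 6 of 15 genes were higher and 1 lower (median 0.58). The channel Trpm5 was at 8.66 and 8.40 in the adult pools, against 7.36 and 7.32 in the fetal pools (1.19 ± 0.23, adjusted p = 0.0102), Rgs13 was at least 2.25-fold higher, and the prostaglandin synthase Hpgds was lower (-1.24 ± 0.17, adjusted p = 0.00213). The tuft genes higher numbered 0 without adult pool 1 or the merged fetal pool, 1 without the pool labelled fetal colon 1 and 3 without adult pool 2.

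A minority of crypt genes passed the test. Of 24 stem cell and Wnt target genes, 8 were higher and 0 lower in adult pools (median 0.62). Olfm4, a crypt base stem cell marker, was at 11.12 and 11.09 in the adult pools, against 8.90 and 8.78 in the fetal pools (2.27 ± 0.13, adjusted p = 2.82e-05). Sp5, a direct Wnt target, was at 10.67 and 10.94 in the adult pools, against 7.86 and 7.48 in the fetal pools (3.14 ± 0.21, adjusted p = 5.54e-05), and Smoc2 (1.14 ± 0.21, adjusted p = 0.00741) and Lrig1 (1.06 ± 0.15, adjusted p = 0.00263) rose. Lgr5, the stem cell receptor, differed by 0.65 ± 0.22, adjusted p = 0.0729. The count of higher genes was 3 without adult pool 1 or the merged fetal pool, 4 without the pool labelled fetal colon 1, 5 without adult pool 2 and 18 without adult colon pool 1. Of 35 cell cycle genes, 2 were higher and 1 lower (median -0.05), beside 9.79% and 11.7% of all genes. The number higher was 1 without adult pool 2, 0 without any other of the 4 pools and 5 without adult colon pool 1. The inhibitor Cdkn1a (1.16 ± 0.29, adjusted p = 0.026) and the cyclin Ccnd1 (0.80 ± 0.16, adjusted p = 0.0121) rose, and the replication helicase subunit Mcm2 fell (-1.03 ± 0.27, adjusted p = 0.0307). The proliferation marker Mki67 was at 12.74 and 12.81 in the adult pools, against 12.30 and 12.31 in the fetal pools, with a difference of 0.47 ± 0.21 (adjusted p = 0.154).

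Imprinted genes were lower in adult small intestine, with the largest share of members past the threshold among the lists that fell. Of 30 tested, 1 was higher and 20 lower in adult pools (median -1.08, range -9.41 to 1.95). Mest, an imprinted hydrolase, was at 8.24 and 7.98 in the adult pools, against 13.57 and 13.48 in the fetal pools, a 42.6-fold fall (-5.41 ± 0.18, adjusted p = 1.87e-06). Plagl1, a zinc finger regulator of other imprinted genes, was at 8.29 and 7.80 in the adult pools, against 12.72 and 12.97 in the fetal pools (-4.80 ± 0.24, adjusted p = 1.35e-05). Igf2 shares its locus with H19 and Dlk1 its locus with Meg3, and Meg3 was at 9.55 and 8.54 in the adult pools, against 12.30 and 12.39 in the fetal pools (-3.30 ± 0.45, adjusted p = 0.00212). Grb10, an adaptor that restrains growth factor signalling, fell by 3.27 (adjusted p = 0.000527), and Igf2r, the receptor that clears Igf2, differed by -1.09 ± 0.22, adjusted p = 0.0108. Usp29 was the 1 member higher (1.89 ± 0.39, adjusted p = 0.0126). Snrpn (0.08 ± 0.22), Phlda2 (0.39 ± 0.26) and Impact (-0.25 ± 0.25) missed the threshold. Peg3, Dio3 and Rian were not above background on any adult array and were at least 1.9-fold, 2.12-fold and 2.63-fold lower. Without adult pool 1 or the pool labelled fetal colon 1, 13 were lower.

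Of 18 oncofetal RNA-binding proteins and growth regulators, 9 fell and 0 rose (median -1.21). Igf2bp1, which binds the Igf2 transcript, was at least 6.09-fold lower (adjusted p = 0.000124), and its paralogue Igf2bp3 was at 8.82 and 8.99 in the adult pools, against 10.73 and 10.95 in the fetal pools (-1.94 ± 0.17, adjusted p = 0.000234). Gpc3, a heparan sulphate proteoglycan of fetal tissues, was at 9.28 and 9.40 in the adult pools, against 12.30 and 12.39 in the fetal pools (-3.01 ± 0.31, adjusted p = 0.000545). Mycn (-2.25 ± 0.22, adjusted p = 0.000439) and the heparin-binding growth factor Mdk (-2.03 ± 0.24, adjusted p = 0.00105) were lower. Hmga2 fell by 1.21 (adjusted p = 0.0131) whereas Hmga1 differed by 0.29 ± 0.33 (adjusted p = 0.604). Without adult colon pool 1, 14 members were lower, against 7 with the fetal groups as labelled and 4 with median centring. Leaving out any 1 of the 4 pools kept the list median between -1.24 and -1.14.

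Liver-type plasma protein genes were lower in adult pools, 14 of 24 with 0 higher (median -1.64). Afp, the fetal albumin relative, was at 10.85 and 11.31 in the adult pools, against 15.92 and 16.79 in the fetal pools (-5.28 ± 0.30, adjusted p = 2.88e-05), so that its adult level stayed above background. F10, coagulation factor X, was at 9.26 and 9.34 in the adult pools, against 14.03 and 14.02 in the fetal pools, a 26.4-fold fall (-4.72 ± 0.14, adjusted p = 1.38e-06). Fgb, the fibrinogen beta chain (-4.49 ± 0.26, adjusted p = 2.82e-05), and Apom, an apolipoprotein of high density lipoprotein (-3.62 ± 0.15, adjusted p = 5.58e-06), were lower, and Trf, transferrin, was at 8.96 and 8.76 in the adult pools, against 11.09 and 11.75 in the fetal pools (-2.56 ± 0.40, adjusted p = 0.00389). Alb and Ahsg, major plasma proteins of hepatocytes, parted the fetal pools. Alb was at 6.96 and 7.24 in the adult pools, against 7.27 and 10.76 in the fetal pools, and Ahsg was at 7.20 and 7.17 in the adult pools, against 7.50 and 11.16 in the fetal pools. The pool labelled fetal colon 1 alone was high in both, and neither passed the test (adjusted p = 0.186 and 0.16). The mean log2 level of the list ran from 8.22 to 8.31 in adult pools and from 9.66 to 10.29 in fetal pools. With the merged fetal pool alone as reference, 12 members were lower, with a median of -1.09. The part of liver RNA in these values was not tested.

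Erythroid genes fell in 4 of 11 tested. The haem enzyme Alas2 was at 9.36 and 8.68 in the adult pools, against 11.24 and 10.52 in the fetal pools (-1.87 ± 0.36, adjusted p = 0.01), and the globin probe Hbb-bt, which may read its paralogues, at 14.70 and 13.76 in the adult pools, against 16.80 and 16.03 in the fetal pools (-2.19 ± 0.49, adjusted p = 0.0173). The anion exchanger Slc4a1 differed by -0.98 ± 0.13, adjusted p = 0.00184 and Hba-a1 by -2.34 ± 0.58, adjusted p = 0.025. Car2, listed here as a red cell carbonic anhydrase but also expressed in gut epithelium, was the 1 member higher (1.51 ± 0.22, adjusted p = 0.00294). Without adult pool 2 or the merged fetal pool, 1 erythroid gene was lower.

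In the stromal lists more members fell than rose, beside 9.79% of all genes higher and 11.7% lower. The share of smooth muscle genes lower did not exceed that of all genes. Collagens and matrix genes were lower in 14 of 36 and higher in 0 (median -0.58). The collagen VI chains Col6a1 (9.62 and 9.69 in the adult pools, against 11.46 and 11.34 in the fetal pools, difference -1.75 ± 0.16, adjusted p = 0.00034) and Col6a2 (-1.55 ± 0.20, adjusted p = 0.00139) and the collagen I chain Col1a1 (-1.04 ± 0.27, adjusted p = 0.029) were lower. The collagen cross-linking oxidase Lox (-1.66 ± 0.20, adjusted p = 0.00107) and the fetal fibrillin Fbn2 (-1.64 ± 0.14, adjusted p = 0.000242) fell with them. Without adult pool 1 or the pool labelled fetal colon 1, 8 matrix genes were lower, and 5 without either of the other pools compared. Of 24 smooth muscle genes, 2 were lower, the contractile actin Actg2 (-0.87 ± 0.23, adjusted p = 0.0337) and the coactivator Myocd (-0.93 ± 0.21, adjusted p = 0.0188), the list median was 0.04, and 0 were lower without any 1 of the 4 pools. The desmin gene Des differed by 0.13 ± 0.28 and the myosin Myh11 by 0.27 ± 0.43. Enteric neuron and glia genes were lower in 10 of 27 and higher in 2 (median -0.46). Fabp7, a fatty acid binding protein of glial progenitors, was at 8.34 and 8.05 in the adult pools, against 10.85 and 10.82 in the fetal pools (-2.64 ± 0.16, adjusted p = 4.07e-05), and the glial S100b at 9.36 and 8.63 in the adult pools, against 11.09 and 10.88 in the fetal pools (-1.99 ± 0.31, adjusted p = 0.00373). The endothelin receptor Ednrb (-1.41 ± 0.18, adjusted p = 0.0014) and the neuronal Stmn2 (-1.08 ± 0.20, adjusted p = 0.00754) were lower. The pan-neuronal Uchl1 (-0.24 ± 0.26) and the glial Sox10 (-0.53 ± 0.21) missed the threshold. Of these genes 6 were lower without adult pool 1, 5 without the pool labelled fetal colon 1 and 3 without adult pool 2 or the merged fetal pool. The 2 higher became 1 or 0 without any 1 of these 4 pools, and 1 without adult colon pool 3 or either other fetal pool.

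Most T cell genes were higher in adult small intestine. Of 27 T cell and NK cell genes, 18 were higher and 1 lower in adult pools (median 0.92). Ccl5, a chemokine of intraepithelial T cells, was at 14.30 and 13.40 in the adult pools, against 8.60 and 8.51 in the fetal pools, a 39.3-fold rise (5.30 ± 0.32, adjusted p = 3.95e-05). Granzyme B (Gzmb) was at 10.93 and 10.86 in the adult pools, against 7.25 and 7.24 in the fetal pools (3.65 ± 0.21, adjusted p = 2.89e-05). The T cell receptor subunits Cd3g (2.20 ± 0.20, adjusted p = 0.000255) and Cd3d (2.87 ± 0.27, adjusted p = 0.000327), the coreceptor Cd8a (2.05 ± 0.14, adjusted p = 6.17e-05) and the integrin Itgae, which binds epithelial cadherin (1.95 ± 0.19, adjusted p = 0.000365), rose. Cd4 (-0.07 ± 0.13) and Cd8b1 (-0.13 ± 0.22) missed the threshold. Without the pool labelled fetal colon 1, 13 were higher. Among 20 B cell and plasma cell genes, 8 were higher and 2 lower in adult pools (median 0.68). Plasma cell genes led, with Mzb1 at 10.87 and 10.67 in the adult pools, against 7.37 and 7.36 in the fetal pools (3.40 ± 0.14, adjusted p = 4.7e-06) and the coactivator Pou2af1 at 10.76 and 10.52 in the adult pools, against 7.41 and 7.29 in the fetal pools (3.29 ± 0.24, adjusted p = 0.000105). The B cell receptor partner Cd79b differed by 1.09 ± 0.29, adjusted p = 0.0322, whereas Cd22 (0.33 ± 0.16) missed the threshold. The members lower were Prdm1 (-1.96 ± 0.32, adjusted p = 0.00448), known both for plasma cells and for the fetal epithelium, and the chemokine Cxcl13 (-2.10 ± 0.31, adjusted p = 0.00305). Of the B cell and plasma cell genes 5 were higher without adult pool 1, the merged fetal pool or the pool labelled fetal colon 1.

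Class II antigen presentation genes rose, and most macrophage genes missed the threshold. Of 25 MHC class II and myeloid genes, 13 were higher and 1 lower in adult pools (median 0.71). The number higher was 6 with median centring or with the fetal groups as labelled, and 14 without adult colon pool 1. H2-Ab1 was at 14.58 and 14.0 in the adult pools, against 11.91 and 11.95 in the fetal pools (2.36 ± 0.26, adjusted p = 0.000706), H2-Aa at 11.82 and 11.26 in the adult pools, against 9.15 and 9.39 in the fetal pools (2.27 ± 0.21, adjusted p = 0.00034) and the invariant chain Cd74 at 13.83 and 13.38 in the adult pools, against 11.64 and 11.23 in the fetal pools (2.17 ± 0.26, adjusted p = 0.00109). Ciita, the class II transactivator, rose by 1.26 ± 0.32, adjusted p = 0.0292. Csf1r, the receptor of macrophage growth factor, was lower, at 9.66 and 9.62 in the adult pools, against 12.75 and 13.04 in the fetal pools (-3.26 ± 0.17, adjusted p = 1.95e-05). The macrophage genes Adgre1 (0.24 ± 0.32), Cd68 (-0.41 ± 0.25), Mrc1 (-0.29 ± 0.20), Cx3cr1 (-0.58 ± 0.18) and C1qa (-0.62 ± 0.28) missed the threshold. In mast cells, 1 of 9 genes was higher and 1 lower, beside 9.79% and 11.7% of all genes. Cpa3, the mast cell carboxypeptidase, was at least 2.05-fold lower (adjusted p = 0.00169), and Kit, which pacemaker cells of the muscle share, differed by 0.49 ± 0.14, adjusted p = 0.0413. Interferon-stimulated genes were higher in 15 of 32 and lower in 0 (median 1.17). The GTPase Igtp was at 13.65 and 13.74 in the adult pools, against 11.18 and 12.04 in the fetal pools (2.08 ± 0.32, adjusted p = 0.00378), Cxcl9 was at least 4.99-fold higher (adjusted p = 0.00028), and the regulator Irf1 rose by 0.99 ± 0.14, adjusted p = 0.00276 beside the GTPase Tgtp1 (1.65 ± 0.19, adjusted p = 0.000992). Ifit1 (0.14 ± 0.62) and Mx1 (0.35 ± 0.32) missed the threshold. The mean level of the interferon list was 11.10 to 11.10 in adult pools and 9.59 to 10.42 in fetal pools, and 8 members were higher without adult pool 2 or the merged fetal pool.

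In genes that handle foreign chemicals, more members rose than fell. Of 49 tested, 21 were higher and 3 lower in adult pools (median 0.89). The number higher was 9 with median centring, 11 with the fetal groups as labelled and 28 without adult colon pool 1. The cytochrome P450 genes Cyp3a11 (12.45 and 13.87 in the adult pools, against 7.19 and 7.13 in the fetal pools, difference 6.0 ± 0.39, adjusted p = 5.3e-05) and Cyp3a25 (12.55 and 13.08 in the adult pools, against 7.20 and 7.02 in the fetal pools, difference 5.71 ± 0.20, adjusted p = 2.15e-06) were near the floor in fetal pools. Cyp2b9 was at 11.61 and 12.03 in the adult pools, against 7.21 and 6.95 in the fetal pools (4.74 ± 0.18, adjusted p = 3.74e-06) and the carboxylesterase Ces2c at 13.21 and 13.45 in the adult pools, against 8.55 and 8.29 in the fetal pools (4.91 ± 0.19, adjusted p = 3.83e-06). These gene families have close members that a probe may not separate. The receptors that induce them, Nr1i2 (0.84 ± 0.27) and Nr1i3 (0.13 ± 0.21), missed the threshold. The glucuronosyltransferase Ugt2b36 (-2.07 ± 0.42, adjusted p = 0.0112), the sulfotransferase Sult1d1 (-0.76 ± 0.23, adjusted p = 0.0498) and the aldehyde dehydrogenase Aldh1b1 (-0.85 ± 0.24, adjusted p = 0.0397) were lower. Of the 3 lower, 0 passed without adult pool 1 or the merged fetal pool and 1 without the pool labelled fetal colon 1 or adult colon pool 3, while 6 were lower without adult colon pool 1.

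Micronutrient genes divided, 5 of 22 higher and 6 lower (median 0.13). Vdr, the vitamin D receptor, was at 13.52 and 13.95 in the adult pools, against 10.67 and 10.45 in the fetal pools (3.17 ± 0.19, adjusted p = 3.95e-05). The folate transporter Slc46a1 rose (2.14 ± 0.43, adjusted p = 0.0115). In iron handling, the apical importer Slc11a2 rose (1.51 ± 0.26, adjusted p = 0.00623), whereas the exporter ferroportin, Slc40a1, was at 11.61 and 12.47 in the adult pools, against 13.89 and 14.34 in the fetal pools (-2.07 ± 0.29, adjusted p = 0.00228) and the ferritin light chain Ftl1 fell (-1.62 ± 0.19, adjusted p = 0.000949). The retinol acyltransferase Lrat was at 8.42 and 8.65 in the adult pools, against 10.93 and 10.86 in the fetal pools (-2.36 ± 0.16, adjusted p = 6.73e-05). The number higher was 1 without the merged fetal pool, 2 without adult pool 2 or the pool labelled fetal colon 1 and 8 without adult colon pool 1, and the number lower was 3 without adult pool 1.

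Of 28 regulators of gut region and fate tested, 3 were higher and 4 lower in adult pools (median -0.15), beside 9.79% and 11.7% of all genes. The number higher was 0 without the merged fetal pool, 1 without adult pool 2 and 5 without adult colon pool 1, and 2 were lower without any 1 of the 4 pools. Hnf4a, a nuclear receptor of enterocytes, was at 12.27 and 12.62 in the adult pools, against 11.42 and 11.55 in the fetal pools (0.96 ± 0.17, adjusted p = 0.00626), and Klf5 rose (0.88 ± 0.26, adjusted p = 0.0481). Bmp4 was at 8.52 and 8.75 in the adult pools, against 10.59 and 10.35 in the fetal pools (-1.84 ± 0.16, adjusted p = 0.000203), and the mesenchymal factors Foxf2 (-1.19 ± 0.27, adjusted p = 0.0189) and Nkx2-3 (-1.19 ± 0.32, adjusted p = 0.0349) fell. Prdm1, a repressor of the fetal-to-adult enterocyte switch in mice, was at 8.89 and 8.82 in the adult pools, against 10.63 and 11.01 in the fetal pools. Cdx2, the hindgut and intestinal master regulator, differed by 0.53 ± 0.85 (adjusted p = 0.713) and Gata4 by -0.29 ± 0.17 (adjusted p = 0.266). Among 29 Hox genes, 5 were lower and 0 higher by limma, beside 11.7% of all genes lower and 9.79% higher. Fetal pools were chosen by the absence of Hoxd10 and Hoxd13 signal, which bears on this list, so the count is a description. With only probes well above background on all arrays compared, 13 Hox genes were tested and 3 were lower. Hoxa5 (-1.20 ± 0.28, adjusted p = 0.0196), Hoxb5 (-1.07 ± 0.24, adjusted p = 0.0164), Hoxa4 (-1.0 ± 0.17, adjusted p = 0.00499), Hoxa2 (-0.81 ± 0.17, adjusted p = 0.0127) and Hoxb2 (-1.02 ± 0.24, adjusted p = 0.0214) all belong to the anterior part of their clusters. Since the pools were chosen by genes of the hindgut end of the Hox code, the position of the lower genes in their clusters is not a result. The number of Hox genes lower was 0 without the merged fetal pool, 1 without either adult pool, 2 without the pool labelled fetal colon 1 and 8 without adult colon pool 1. Colon markers were lower in 5 of 19 and higher in 2, beside 11.7% of all genes lower and 9.79% higher. Car4, a membrane carbonic anhydrase, was at least 15.6-fold higher in adult pools, and the sodium channel subunit Scnn1a (-2.61 ± 0.18, adjusted p = 6.81e-05) and the folate hydrolase Ggh (-2.80 ± 0.18, adjusted p = 4.88e-05) were lower.

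**Figure D3:**
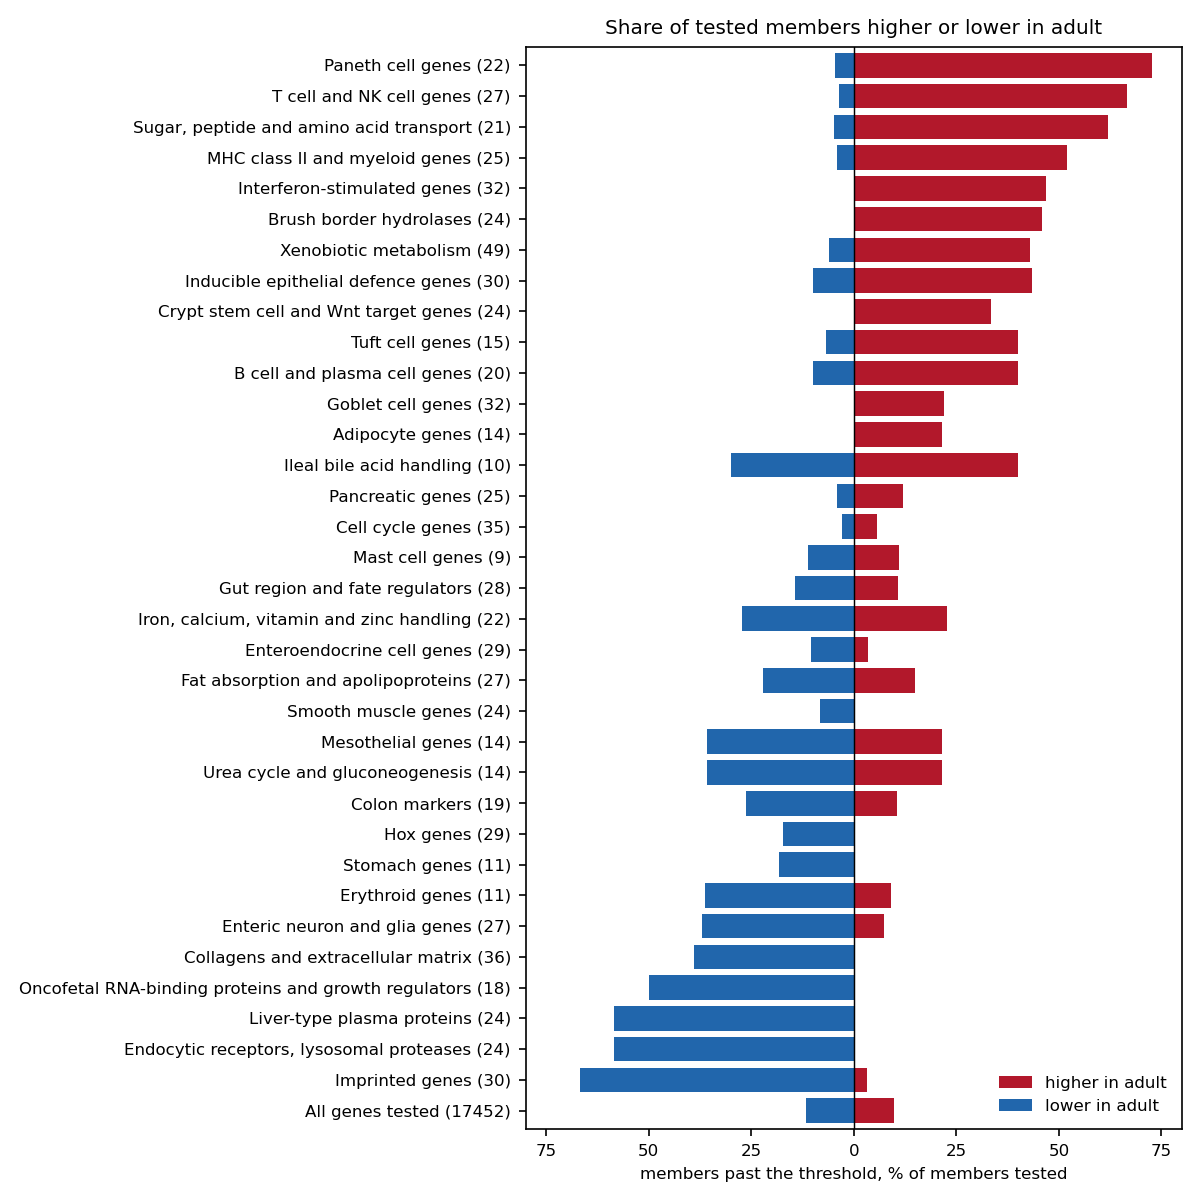
Share of the tested members of each of 34 gene lists past the threshold (x axis, percent of members tested), with genes higher in adult pools to the right in red and lower to the left in blue. The number tested stands in brackets and the bottom row gives all genes tested, with 9.79% higher and 11.7% lower. Paneth cell genes stand at the top with 16 of 22 higher, and imprinted genes at the foot of the lists with 20 of 30 lower.

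Lists of neighbouring tissues were also read. Of 25 pancreatic genes 3 were higher and 1 lower in adult pools, beside 9.79% and 11.7% of all genes. The median of the list was nevertheless 2.81 and 24 lay above 0. Without adult colon pool 2, which enters only the estimate of the spread, 21 were higher. Their mean level was 11.26 to 12.26 in adult pools and 8.44 to 9.05 in fetal pools. The members past the threshold were Sycn (3.15 ± 0.48, adjusted p = 0.00342), the elastase Cela1 (2.81 ± 0.54, adjusted p = 0.00947) and Zg16, which goblet cells share, with the islet gene Iapp lower (-0.91 ± 0.17, adjusted p = 0.00926). Adipocyte genes were higher in 3 of 14, and Cfd, adipsin, was at 13.41 and 10.02 in the adult pools, against 7.19 and 7.07 in the fetal pools (4.59 ± 0.90, adjusted p = 0.0104). Adipoq, adiponectin, was at 10.55 and 8.04 in the adult pools, against 7.01 and 6.96 in the fetal pools (adjusted p = 0.0544). Adipocyte genes higher numbered 8 without adult pool 2 and 6 without adult colon pool 1. Cfd and Adipoq were highest in adult pool 1, and the mean level of the list was 9.27 to 10.60 in adult pools and 8.95 to 8.96 in fetal pools. Mesothelial genes were lower in 5 of 14, led by Upk3b at 7.51 and 7.30 in the adult pools, against 10.17 and 9.98 in the fetal pools (-2.67 ± 0.16, adjusted p = 3.96e-05). The number lower was 1 without adult pool 2 or the pool labelled fetal colon 1, 2 without the merged fetal pool, 3 without adult pool 1 and 8 without adult colon pool 1. In 14 genes of this list 3 were higher, of which Krt8 and Krt19 are also epithelial. Stomach genes were lower in 2 of 11, beside 11.7% of all genes. These were Gkn3 (-2.04 ± 0.33, adjusted p = 0.00458) and Tff1 (-1.10 ± 0.25, adjusted p = 0.0188). The part of carried-over tissue in the lists above was not tested.

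The pools of one stage also differed from each other in a few genes, given as values since each pool stands alone. S100g, a vitamin D dependent calcium binding protein, was at 11.10 and 13.51 in the adult pools, against 14.11 and 13.37 in the fetal pools, so that adult pool 1 lay below the other 3 pools. Gja5, a connexin, was at 8.37 and 10.59 in the adult pools, against 8.05 and 7.61 in the fetal pools, with adult pool 2 highest. The amylase probe Amy1 was at 16.49 and 15.41 in the adult pools, against 12.78 and 7.87 in the fetal pools, and Amy2a5 was at 13.15 and 12.16 in the adult pools, against 9.38 and 7.12 in the fetal pools. The pool labelled fetal colon 1 was lowest for both. Mt2, a metallothionein, was at 13.54 and 13.58 in the adult pools, against 16.34 and 13.63 in the fetal pools, with the merged fetal pool highest. Xist, the X inactivation transcript, was at 10.53 and 10.48 in the adult pools, against 11.71 and 7.26 in the fetal pools, and the Y-linked Eif2s3y was at 10.63 and 10.60 in the adult pools, against 7.13 and 11.13 in the fetal pools. Ddx3y, also on Y, was at 8.82 and 8.78 in the adult pools, against 7.16 and 9.62 in the fetal pools. Xist was low and the Y-linked genes high in the pool labelled fetal colon 1, the reverse held in the merged fetal pool, and both adult pools carried signal of all 3.

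**Figure D4:**
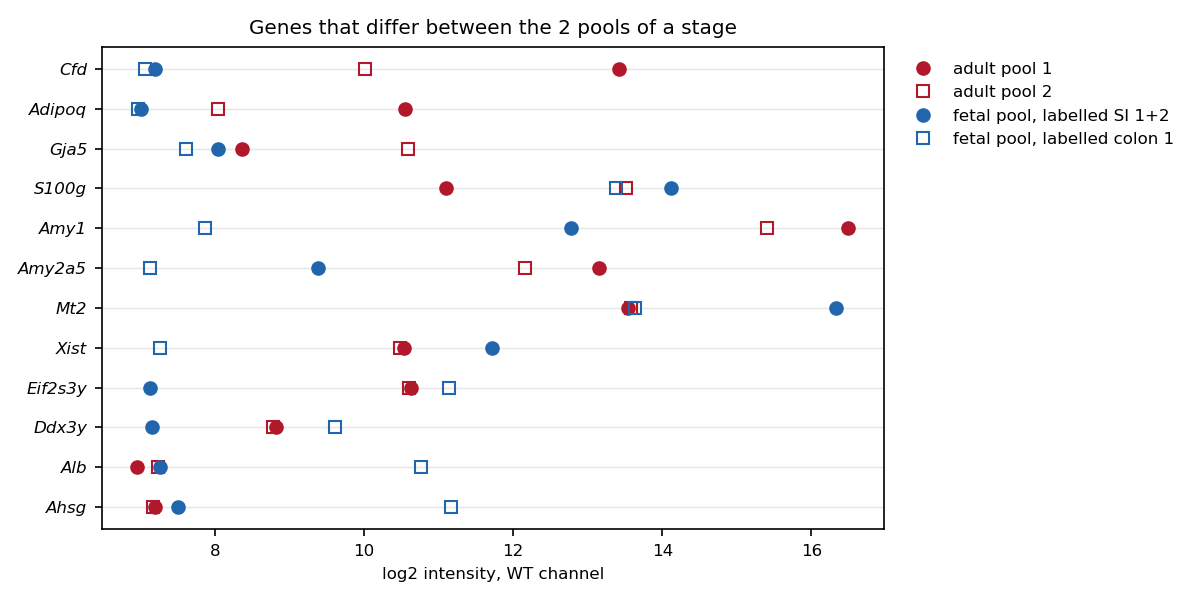
Level of 12 genes (log2 intensity of the wild type channel, x axis) in the 4 pools, adult in red and fetal in blue, filled for the first and open for the second pool of a stage. Cfd and Adipoq part the adult pools, and Amy1, Xist, Eif2s3y, Alb and Ahsg part the fetal pools.

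The difference between the stage effect of small intestine and that of colon was tested in the same fit, with the 3 adult colon pools and the 2 fetal pools of colon profile. It was higher in small intestine for 419 genes, 2.4% of those tested, and lower for 623, 3.57%. Sis rose by 7.35 in small intestine, against 0.01 in colon. Defa31 rose by 8.56, against -0.22 in colon. Treh (6.15 against 0.24) and Arg2 (5.83 against 0.49) had the same pattern. Genes of plasma cells did not part the tissues in this way, with Jchain at 6.90 in small intestine and 7.27 in colon (difference -0.37, 0.627 as the adjusted p by limma). Igf2 was lower in both, at -6.50 and -6.79 (difference 0.29, adjusted p = 0.597). Aqp8 was at -5.96 in small intestine and 1.15 in colon, and the epithelial sodium channel subunit Scnn1a at -2.61 and 2.95. Without adult colon pool 1 the counts were 1324 and 1402.

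**Figure D5:**
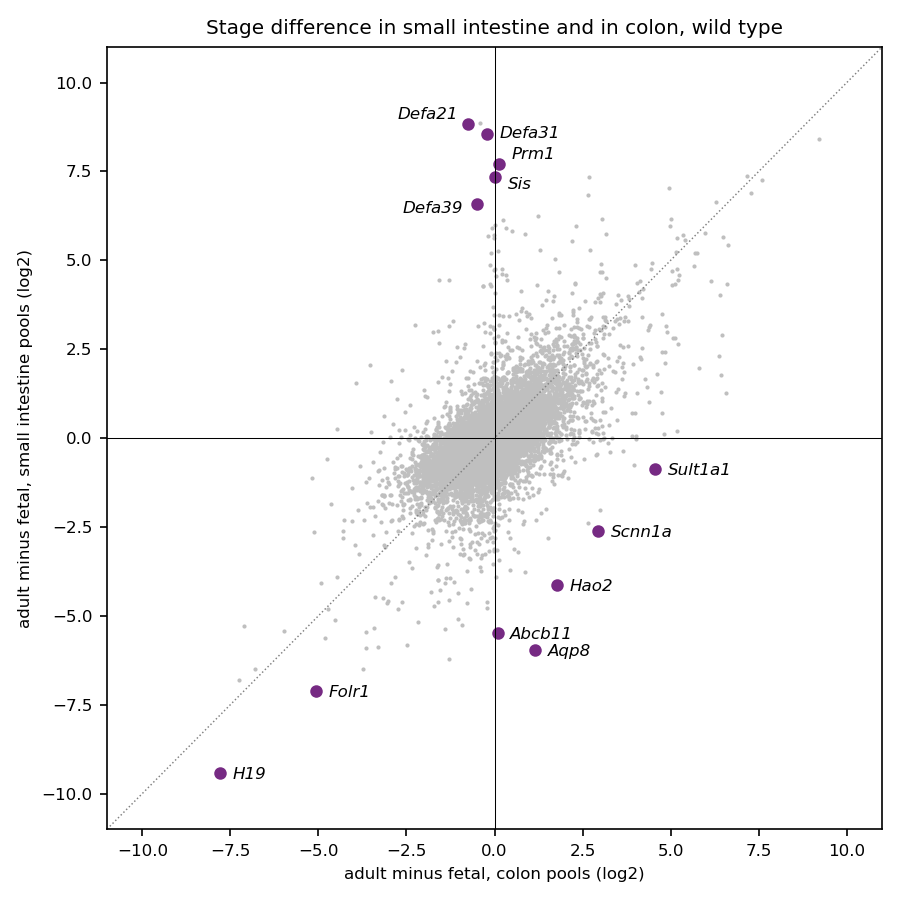
Stage difference (adult minus fetal, log2) in small intestine pools (y axis) and in colon pools (x axis), 1 point a gene. Labelled purple points are genes with the largest differences between the tissues and marker genes, and the dotted line marks equal differences. Sis, Prm1 and the defensins lie near 0 in colon, and Aqp8, Hao2 and Abcb11 lie below 0 in small intestine and at 0.09 to 1.77 in colon.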

How the data were processed

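RNA pools of wild type mouse gut were read from two-colour Agilent arrays, and the authors' deposited scanner files give mean signal, local background and processed signal as intensity on a linear scale (Agilent Feature Extraction 9.5.3, per the file headers). Probe coordinates are of build mm8, per the file headers. All further values were computed with limma 3.58.1 under R 4.3.3.

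Background was subtracted (normexp, offset 50), arrays were normalized by loess and Aquantile, and wild type channels were averaged over dye orders. A probe was kept if well above background on all wild type arrays of at least 1 group, which left 25516 of 41174, and each gene was read from its brightest kept probe (17452 of 27567 genes). Names in the files were brought up to date with RefSeq (GRCm38.p6). One limma fit over 9 pools with 4 profile groups (5 residual degrees of freedom, prior 2.72) gave two-sided tests, Benjamini-Hochberg adjusted over all genes at a threshold of 0.05; ± is the standard error on the log2 scale. A gene not well above background on any array of a stage is given as a bound. On each array of that stage the bound takes the larger of the gene's own signal and the lowest signal among probes well above background. On simulated pools of 17452 genes the fit recovered 80 of 100 genes changed by 2 and 40 of 100 changed by 1 on the log2 scale. There were 4 false calls. All other genes were simulated without a stage difference and the noise without slide effects, so these rates need not hold in these data.

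The comparison, the 34 gene lists and the naming rule were chosen with earlier results of these data known. Named genes were the 5 markers, up to 12 each way with the largest difference and no overlap between stages, up to 4 members of each list with the smallest adjusted p, up to 5 each way for the difference from colon and between pools of a stage, and partners of these; other list members were named after their values were seen. Unnamed clones were counted and not named. Some list members are counted but not reported here by name. Alternatives covered the pools fitted, normalization, background, filters, probe averaging, slide, replicate number and prior. No pairing by replicate number was assumed: deviations from the stage means of same-numbered pools correlated at -0.102 to 0.101 across genes, and of other numbers at -0.101 to 0.102, which mirror each other with 2 pools a stage.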

Additional observations from a re-analysis of the deposited data

Results flagged for a closer look

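The stage difference of small intestine and that of colon differed for 73 of the 161 genes named by the rule. The test was limma's test of the difference itself, adjusted over all genes. Over all genes tested, the difference was higher in small intestine for 2.4% and lower for 3.57%. Genes were named partly for the size of this difference or of the stage difference in small intestine, so the count of 73 is a description. Given here are the 5 with the largest difference each way and the markers that passed, 12 genes in all. Each value below is the small intestine difference minus the colon difference on the log2 scale (± SE), and pools of the 2 tissues were not on the same slides throughout.

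The defensins picked here and sucrase rose in small intestine and were near or below 0 in colon, whereas the Paneth cell gene Lyz1 also rose in colon (2.30, adjusted p = 0.000159 by limma). Defa21 differed by 9.60 ± 1.24 (adjusted p = 0.00461), with a stage difference of 8.85 in small intestine and -0.76 in colon. Defa31 differed by 8.78 ± 0.34 (adjusted p = 2.98e-05) and Defa39 by 7.07 ± 0.64 (adjusted p = 0.000815). Sis differed by 7.34 ± 0.74 (adjusted p = 0.00142). Prm1, whose product packs DNA in sperm, differed by 7.60 ± 0.27 (adjusted p = 2.55e-05), with 7.72 in small intestine and 0.12 in colon.

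Other genes fell in small intestine and rose in colon, or fell in small intestine alone. Aqp8, a water channel, differed by -7.11 ± 0.25 (adjusted p = 2.55e-05), with -5.96 in small intestine and 1.15 in colon. Hao2, a hydroxy acid oxidase, differed by -5.90 ± 0.27 (adjusted p = 3.68e-05), with -4.13 in small intestine and 1.77 in colon. The bile salt pump Abcb11 differed by -5.58 ± 0.25 (adjusted p = 3.42e-05), with -5.48 in small intestine and 0.09 in colon. The sodium channel subunit Scnn1a differed by -5.56 ± 0.24 (adjusted p = 3.42e-05), with -2.61 in small intestine and 2.95 in colon. The sulfotransferase Sult1a1 differed by -5.42 ± 0.28 (adjusted p = 6.34e-05), with -0.86 in small intestine and 4.56 in colon.

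H19 and Folr1 fell in both tissues, and with the fetal groups as labelled the difference between tissues reversed for both (H19 0.12, Folr1 0.068). H19 differed by -1.61 ± 0.25 (adjusted p = 0.0109), with -9.41 in small intestine and -7.80 in colon. Folr1 differed by -2.05 ± 0.28 (adjusted p = 0.0056), with -7.11 in small intestine and -5.06 in colon.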

How the results depend on the processing

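The main counts are 1708 genes higher and 2045 lower in adult small intestine, 387 and 266 of them at least 4-fold, and 419 and 623 for the difference from colon. Quantile scaling, no background subtraction, no filter, the mean of probes and slide as a random block kept every one of these counts within 1.5 times. Fitting only the 4 pools gave 3576 higher and 4386 lower. With the merged fetal pairs separate 2462 were higher and 3075 lower, and 749 and 1040 for the difference from colon. With the fetal groups as labelled there were 815 higher and 626 lower, 334 and 144 at least 4-fold, and 67 and 41 for the difference from colon. Under those labels Car2 (-1.45) and Kit (-0.15) reversed, as did the difference from colon for H19 (0.12), Folr1 (0.068) and Abcb11 (0.36), and their groups mix 2 profiles. Median centring gave 278 higher and 330 lower, 230 and 204 at least 4-fold, and 27 and 89. The scanner's processed signals gave 3537 higher and 3859 lower, 1086 and 882 at least 4-fold, and 1028 and 1183, and the cause was not tested for either scaling. With the replicate block, pairs separate, 2358 were higher and 2664 lower, and 514 and 619 for the difference from colon. The replicate block turned no named gene.

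Leaving out 1 pool at a time gave 704 to 3297 genes higher and 782 to 4039 lower, and 150 to 1324 higher and 204 to 1402 lower for the difference from colon. The highest counts were without adult colon pool 1, whose dye orders disagree. The 4-fold counts stayed between 333 and 411 higher and between 245 and 272 lower. Counts fell to 704 and 782 without the merged fetal pool (188 and 331 for the difference from colon), 839 and 928 without adult pool 1, 832 and 807 without adult pool 2, and 825 and 838 without the pool labelled fetal colon 1. Chaining within slides gave values and no counts, since it leaves no degrees of freedom, and turned none of the named genes past the threshold, but it shares adult pool 2 and the pool labelled fetal colon 1 with the comparison, so its signs are not independent. Leaving out each adult colon pool, fetal colon pool 2 and the pool labelled fetal small intestine 3 was chosen after seeing the data. Genes near background have compressed differences after the offset of 50, and 70 of the 653 genes past 4-fold are bounds.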
